A study of Mus musculus with 20 samples.

Results

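The RNA of 9 genes was followed in Sca-1 positive cells of the mouse kidney: 8 genes of matricellular proteins (Postn, Tnc, Sparc, Thbs1, Thbs2, Thbs4, Ccn1 and Ccn2) and the fibronectin gene Fn1. They were taken by name from the 47729 genes counted in each of 20 libraries, and Ccn1 and Ccn2 are the genes earlier named Cyr61 and Ctgf. The cells were obtained by digesting kidney tissue and sorting it magnetically for Sca-1, a surface protein encoded by Ly6a, and the labels describe them as resembling mesenchymal stem cells. The tested drug was roxadustat, which stabilises hypoxia-inducible factor (HIF) by blocking its prolyl hydroxylases. At day 0 there were 2 libraries of freshly isolated cells from roxadustat mice, injected intraperitoneally for 7 days with 33 mg/kg, and 2 from untreated mice. At day 7 and at day 21 there were 4 libraries of roxadustat cells and 4 of control cells each, all cultured in medium for mesenchymal stem cells with fetal calf serum at 20% oxygen. The series text places roxadustat in the culture medium of the treated cells, whereas the 1 protocol text of the labels gives only the injections, so whether these cells also came from injected mice is not known. The labels give neither a strain, sex or age of the mice nor the origin of the replicates (other mice, other dishes or repeated libraries). The p-values therefore measure only the spread between these libraries, which may be technical.

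Matricellular proteins are secreted into the matrix but serve mainly as signals and organisers there. They bind integrins and other receptors, growth factors, proteases and collagen, and tissues make most of them transiently during development and repair. In the kidney they are known from the interstitium of injured and fibrosing tissue, where fibroblasts and pericytes that turn into matrix-producing cells make them together with fibronectin and collagens. Ccn1, Ccn2 and Thbs1 are also known targets of the mechanosensitive coactivators YAP and TAZ and respond to serum.

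Total counts ran from 8502011 to 19903160 per library. Levels are given in CPM (read counts scaled to a common library total) scaled by the TMM method, and every call is an adjusted p under 0.05 in edgeR's quasi-likelihood test over 18731 genes. The treatment was visible in a list of 12 HIF target genes, of which roxadustat cells had 9 higher and none lower at day 0, and 12 higher at day 7 and at day 21. Of all genes tested, 2.73% were called higher at day 0, 24.1% at day 7 and 30% at day 21. Fresh cells carried much tubule RNA despite the sort: 5 proximal tubule markers summed to 16200 to 17100 CPM in roxadustat, against 16700 CPM in control libraries at day 0, and at day 7 to 187 to 198 CPM in roxadustat, against 73.8 to 78.3 CPM in control libraries. At day 0, 5 loop and distal tubule markers summed to 11600 to 13400 CPM in roxadustat, against 14500 to 19100 CPM in control libraries. Among these, Slc12a3 went the other way, at a mean of 1470 CPM in roxadustat, against 1160 CPM in control cells. The marker of the sort, Ly6a, was present in every group, at a mean of 691, 502 and 506 CPM in roxadustat cells at days 0, 7 and 21 and at 523, 163 and 178 CPM in control cells. The control libraries of day 21 formed 2 close pairs, replicates 1 with 2 and 3 with 4. Their counts differed within a pair by a mean chi-square of 2.32 and 1.94 per degree of freedom, and between pairs by 16.1 to 22.

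Most of these genes were higher in fresh roxadustat cells than in fresh control cells, and at day 21 they were called in both directions, as genes at large were. At day 0, 5 of the 8 members that could be tested were higher in roxadustat cells and none was lower, where 6.83% of all genes tested were called, 2.73% higher and 4.11% lower. At day 7 none was higher and 3 were lower, where 47.7% of all genes were called, 24.1% higher and 23.6% lower. At day 21, 3 were higher and 3 lower, where 62.9% of all genes were called, 30% higher and 32.9% lower. The direction of calls over all genes depended on the scaling: with library size alone, which moved all log2 fold changes at day 21 by 0.348, 9372 genes were higher and 3549 lower at day 21 in place of 5616 and 6165. The members then had 4 higher and 3 lower at day 21, and 1 higher and 2 lower at day 7. The median log2 fold change of the 8 tested members was 1.22 at day 0, -0.04 at day 7 and 0.09 at day 21, beside -0.01, 0.03 and 0 for all genes. At day 21 the median size of the change, whatever its sign, was 1.34 for the members and 0.524 for all genes. The remaining gene, Thbs4, had too few counts to be tested in any comparison. A lower level in bulk RNA can mean fewer cells of a type or less RNA per cell, and these cannot be told apart here.

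**Figure D1:**
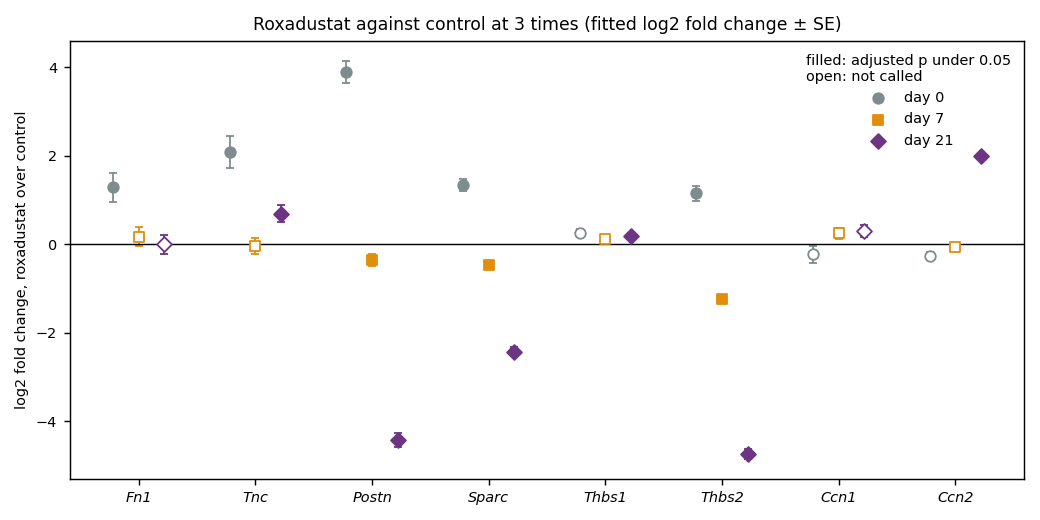
Fitted log2 fold change of roxadustat over control cells ± SE for the 8 tested genes at day 0 (grey circles, n = 2 each), day 7 (orange squares, n = 4 each) and day 21 (purple diamonds, n = 4 each). Filled symbols passed an adjusted p of 0.05. Postn, Sparc and Thbs2 lie above 0 at day 0 and below 0 at days 7 and 21, whereas Ccn2 stands near 0 until day 21.

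Postn, Sparc and Thbs2 shared 1 pattern: higher in roxadustat cells when fresh, lower at day 7 and far lower at day 21. Periostin, the product of Postn (ENSMUSG00000027750, chromosome 3, 54361109 to 54391037 on GRCm38), is made by activated fibroblasts and supports the assembly of collagen fibrils. Its level at day 0 was 85 and 179 CPM in roxadustat libraries, against 8.50 and 9.08 CPM in control libraries. At day 7 it was 948, 900, 891 and 814 CPM in roxadustat libraries, against 1096, 1106, 1162 and 1154 CPM in control libraries. At day 21 it was 204, 230, 209 and 209 CPM in roxadustat libraries, against 4953, 4711, 4254 and 4440 CPM in control libraries. The groups did not overlap at any of the 3 times, and the roxadustat libraries were the higher ones at day 0 only. The log2 fold changes were 3.90 ± 0.25 (SE; adjusted p = 4.41e-08, edgeR) at day 0, -0.35 ± 0.14 (adjusted p = 0.0478) at day 7 and -4.43 ± 0.16 (adjusted p = 4.69e-14) at day 21, the last a 21.5-fold lower level. The call at day 7 is marginal: it was lost when any 1 of the 8 libraries was left out (adjusted p of edgeR 0.0538 to 0.116). Of all 17 alternatives tried, 7 kept the call, among them the fit of only the day 7 groups. The adjusted p over the 17 ran from 3.71e-09 to 0.119 (edgeR, DESeq2 or limma voom).

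SPARC, also known as osteonectin, binds collagen and helps cells to deposit it (Sparc, ENSMUSG00000018593, chromosome 11, 55394500 to 55423183). Its level at day 0 was 133 and 194 CPM in roxadustat libraries, against 56.8 and 72 CPM in control libraries. Values at day 7 were 2794, 2700, 2985 and 2788 CPM in roxadustat libraries, against 4188, 3782, 3810 and 3799 CPM in control libraries. Values at day 21 were 1366, 1092, 1305 and 1402 CPM in roxadustat libraries, against 7296, 7277, 6583 and 6622 CPM in control libraries. Here too the groups were apart at each time, with roxadustat libraries higher when fresh and lower in culture. The log2 fold changes were 1.34 ± 0.14 (adjusted p = 6.25e-07, edgeR), -0.47 ± 0.09 (adjusted p = 0.000163) and -2.43 ± 0.10 (adjusted p = 3.25e-17) at days 0, 7 and 21. The last is a 5.38-fold lower level, a smaller fall than that of Postn.

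Thrombospondin-2, the product of Thbs2 (ENSMUSG00000023885, chromosome 17, 14665500 to 14694235), restrains blood vessel growth, shapes collagen fibrils and removes matrix metalloproteinases through the receptor encoded by Lrp1. At day 0 Thbs2 stood at 14.3 and 26.5 CPM in roxadustat libraries, against 8.96 and 9.28 CPM in control libraries. At day 7 it stood at 290, 271, 298 and 268 CPM in roxadustat libraries, against 676, 639, 681 and 661 CPM in control libraries. At day 21 it stood at 82.5, 74.7, 79.3 and 87.5 CPM in roxadustat libraries, against 2284, 2195, 2077 and 2122 CPM in control libraries. The libraries of each culture group lay close together and far from those of the other treatment. The log2 fold changes were 1.15 ± 0.18 (adjusted p = 0.000232, edgeR), -1.24 ± 0.09 (adjusted p = 1.55e-10) and -4.74 ± 0.11 (adjusted p = 1.17e-20) at days 0, 7 and 21. At day 21 Thbs2 was 26.8-fold lower in roxadustat cells, the largest change of the 8 tested members in the 3 comparisons of roxadustat with control.

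The sizes of the day 0 changes depended on single libraries, since replicate 2 was the higher of the 2 roxadustat libraries for Postn, Sparc, Thbs2, Tnc and Fn1. Without roxadustat replicate 2 the log2 fold change of Thbs2 was 0.65 and that of Tnc 0.99, and without roxadustat replicate 1 they were 1.53 and 2.71. When the 4 fresh libraries were fitted alone, edgeR called none of the 8 members (6 had an unadjusted p under 0.05), limma voom none and DESeq2 4. In that fit only 2 libraries per group set the spread. Fold changes hardly moved in that fit: the log2 value for Postn was 3.92 ± 0.47 with an adjusted p of 0.141, and for Sparc 1.36 ± 0.22 with an adjusted p of 0.142 (edgeR). Of all genes, 23 were called in the fit of the fresh libraries alone, against 1280 in the fit of all libraries and 573 in the fit of all but roxadustat replicate 1.

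Markers of other cell types also differed between the groups. At day 0, 8 fibroblast markers summed to 214 to 301 CPM in roxadustat, against 89.1 to 193 CPM in control libraries. Their sums at day 7 were 160 to 177 CPM in roxadustat and 379 to 426 CPM in control libraries, and at day 21 they were 167 to 177 CPM in roxadustat and 4010 to 4600 CPM in control libraries. All 8 fibroblast markers were detected in every group, and Pdgfra averaged 4.42 CPM in roxadustat, against 153 CPM in control cells at day 21. Some fibroblast markers did not follow the sum. At day 0 Thy1 averaged 1.59 CPM in roxadustat, against 2.51 CPM in control cells, and Pdgfrb 5.03 CPM, against 6.18 CPM. At day 7 Dcn averaged 16.5 CPM in roxadustat, against 15.9 CPM in control cells, and Lum 1.06 CPM, against 0.703 CPM. The 6 macrophage markers, all detected in every group, summed to 166 to 194 CPM in fresh roxadustat libraries, against 67.1 to 83.6 CPM in fresh control libraries. In culture they summed to 14 to 15.7 CPM in roxadustat, against 306 to 312 CPM in control libraries at day 7, and at day 21 to 15.2 to 16.9 CPM in roxadustat, against 256 to 303 CPM in control libraries. The 7 kidney epithelial markers went the other way at day 21, with 386 to 393 CPM in roxadustat and 14 to 16.6 CPM in control libraries. The 7 pericyte and smooth muscle markers, all detected in every group, had a lower sum in roxadustat libraries at each time. At day 0 they summed to 56.7 to 86.6 CPM in the fresh roxadustat libraries, against 99.8 to 107 CPM in the fresh control libraries. Des and Acta2 overlapped between the fresh groups. Des averaged 1.7 CPM in roxadustat, against 1.73 CPM in control cells, and Acta2 10 CPM, against 13 CPM. The sums of the 7 markers in culture were 1820 to 1890 CPM in roxadustat and 5830 to 6350 CPM in control libraries at day 7, and at day 21 they were 943 to 1010 CPM in roxadustat, against 2680 to 3050 CPM in control libraries. In culture this sum was mostly Acta2. At day 7 Notch3 went the other way, at a mean of 27 CPM in roxadustat, against 12.2 CPM in control cells. So did Rgs5, at 0.425 CPM in roxadustat, against 0.325 CPM in control cells. The 7 endothelial markers summed to 123 to 128 CPM in roxadustat and 201 to 225 CPM in control libraries at day 0, to 24.7 to 30 CPM in roxadustat and 76.2 to 82.2 CPM in control libraries at day 7, and at day 21 to 75.1 to 78.7 CPM in roxadustat, against 272 to 296 CPM in control libraries. In culture the endothelial sum was mostly Flt1, while the defining markers Pecam1 and Cdh5 averaged 0.259 and 0.227 CPM in roxadustat cells at day 21, against 0.0636 and 0.0727 CPM in control cells. So at day 0 the fibroblast and macrophage sums were higher in roxadustat libraries, as Postn, Sparc and Thbs2 were, and the pericyte, endothelial and kidney epithelial sums lower. In culture the kidney epithelial sum was higher in roxadustat libraries and the other 4 sums were lower. The part of these cell types in the levels of Postn, Sparc and Thbs2 was not tested.

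**Figure D2:**
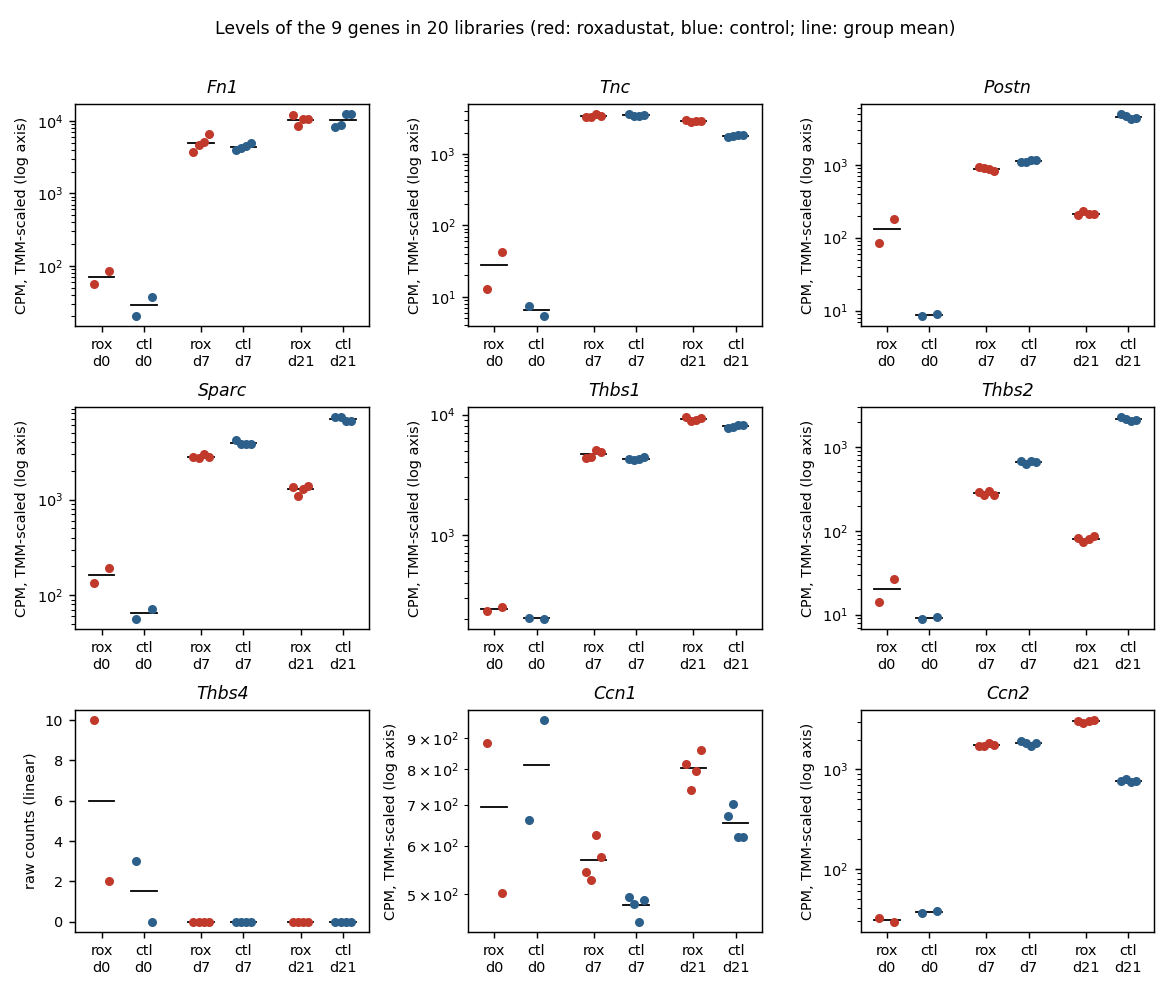
Level of each of the 9 genes in the 20 libraries, as TMM-scaled CPM on a log axis (raw counts on a linear axis for Thbs4), with roxadustat libraries in red, control libraries in blue and the group mean as a line. Postn, Sparc and Thbs2 separate at day 21 with the control libraries above, Ccn2 separates with the roxadustat libraries above, Fn1 overlaps in culture, and Thbs4 has counts at day 0 only.

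The promoters of Postn, Thbs2 and Sparc are shown because these genes moved together. RefSeq windows of 300 bases on GRCm38.p6, from 250 bases before the annotated start site to 50 after it, were matched for 6 of the 9 members, with 8 windows in all since Postn and Tnc have 2 start sites each. Both strands were searched for 5 motifs: the hypoxia response cores ACGTG and GCGTG, the TEAD motif GGAATG through which YAP and TAZ act, the AP-1 motif TGANTCA and the CArG box of serum response factor. The windows of Postn (start site 2, chr3:54360857-54361156, plus strand), Thbs2 (chr17:14694213-14694512, minus strand) and Sparc (chr11:55420031-55420330, minus strand) read, 5′ to 3′ and with no capitals since none of the 5 motifs was found in them:
Postn: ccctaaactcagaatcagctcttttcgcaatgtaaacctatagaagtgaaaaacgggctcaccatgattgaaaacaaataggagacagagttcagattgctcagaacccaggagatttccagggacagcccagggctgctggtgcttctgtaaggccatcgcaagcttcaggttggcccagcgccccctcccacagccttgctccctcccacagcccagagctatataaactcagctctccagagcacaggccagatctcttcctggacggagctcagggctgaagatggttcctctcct
Thbs2: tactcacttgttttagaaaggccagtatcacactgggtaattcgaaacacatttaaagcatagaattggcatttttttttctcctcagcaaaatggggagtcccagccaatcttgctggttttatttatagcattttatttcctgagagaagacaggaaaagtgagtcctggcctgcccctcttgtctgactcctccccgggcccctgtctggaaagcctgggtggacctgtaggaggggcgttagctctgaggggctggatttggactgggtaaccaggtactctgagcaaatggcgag
Sparc: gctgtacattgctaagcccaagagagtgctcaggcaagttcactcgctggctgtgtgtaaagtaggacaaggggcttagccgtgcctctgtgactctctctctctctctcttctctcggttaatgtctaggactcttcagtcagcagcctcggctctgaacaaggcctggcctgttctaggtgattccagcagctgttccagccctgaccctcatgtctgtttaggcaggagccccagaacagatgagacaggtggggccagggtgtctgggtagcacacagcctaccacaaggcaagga
Of 32851 windows of the same length, 19.6% hold ACGTG, 32.4% GCGTG, 14.7% GGAATG, 7.81% TGANTCA and 1.63% a CArG box. The other window of Postn held none of the motifs either. A missing match says only that these letters are not in the window.

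Fibronectin is a glycoprotein that cells pull into fibrils through integrins and on which other matrix proteins are laid down (Fn1, ENSMUSG00000026193, chromosome 1, 71585520 to 71653200). Fn1 had a higher level in fresh roxadustat cells, with 56.4 and 84.9 CPM in roxadustat libraries, against 20.4 and 37.1 CPM in control libraries. The log2 fold change was 1.29 ± 0.33 (adjusted p = 0.027, edgeR), and the 2 groups did not overlap. This call was lost with control replicate 1 left out (0.92 on the log2 scale, adjusted p = 0.184 in edgeR), without roxadustat replicate 2 (0.97, adjusted p = 0.209) and in 2 of the other alternatives, with adjusted p from 3.58e-28 to 0.326 over all 13. In culture Fn1 did not pass the test. At day 7 it was at 3721, 4600, 5077 and 6555 CPM in roxadustat libraries, against 3997, 4232, 4539 and 4918 CPM in control libraries. At day 21 it was at 12200, 8449, 10496 and 10543 CPM in roxadustat libraries, against 8314, 8699, 12370 and 12367 CPM in control libraries. The groups overlapped at both times, with log2 fold changes of 0.17 ± 0.21 (adjusted p = 0.531) and -0.0021 ± 0.21 (adjusted p = 1). Among the control libraries the spread at day 21 followed their close pairs. Replicates 3 and 4 averaged 1.45 times the level of replicates 1 and 2 for Fn1. For the other 7 tested members they averaged 0.9 to 1.06 times that level. The roxadustat libraries of day 21 also spread, from 8449 to 12200 CPM. Counts per gene do not separate the splice forms of Fn1, such as those of plasma and of cells.

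Tenascin-C is made in embryonic and wounded tissue and loosens the adhesion of cells to fibronectin (Tnc, ENSMUSG00000028364, chromosome 4, 63959785 to 64047015). Fresh roxadustat cells had more Tnc, at 12.9 and 42.8 CPM in roxadustat libraries, against 7.47 and 5.46 CPM in control libraries. Tnc at day 7 was at 3318, 3266, 3611 and 3450 CPM in roxadustat libraries, against 3612, 3413, 3401 and 3563 CPM in control libraries. Tnc at day 21 was at 2961, 2850, 2920 and 2938 CPM in roxadustat libraries, against 1736, 1771, 1861 and 1845 CPM in control libraries. The groups were apart at days 0 and 21 and overlapped at day 7. Log2 fold changes were 2.09 ± 0.37 (adjusted p = 0.00249, edgeR) at day 0, -0.04 ± 0.19 (adjusted p = 0.902) at day 7 and 0.69 ± 0.19 (adjusted p = 0.0048) at day 21, the last a 1.62-fold higher level. At day 21 Tnc was thus higher in roxadustat cells while Postn was lower, and at day 7, when Postn was also lower, Tnc was not called.

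Thrombospondin-1 activates latent TGF-beta and binds the receptors CD36 and CD47 (Thbs1, ENSMUSG00000040152, chromosome 2, 118111876 to 118127133). Thbs1 differed little with treatment at every time. At day 0 it was at 234 and 249 CPM in roxadustat libraries, against 204.5 and 200.5 CPM in control libraries, with a log2 fold change of 0.25 ± 0.09 (adjusted p = 0.0736, edgeR). At day 7 it was at 4339, 4407, 5113 and 4864 CPM in roxadustat libraries, against 4242, 4225, 4251 and 4467 CPM in control libraries, with overlapping groups and a log2 fold change of 0.12 ± 0.06 (adjusted p = 0.0881). At day 21 it was at 9497, 8911, 8964 and 9271 CPM in roxadustat libraries, against 7796, 7898, 8182 and 8253 CPM in control libraries. Only the day 21 difference was called in the fit of all libraries, at 1.14-fold higher in roxadustat cells (log2 fold change 0.19 ± 0.06, adjusted p = 0.00649). At day 0, 3 of 13 alternatives called it higher (adjusted p 0.0152 to 0.327 over all of them). At day 7, 3 of 17 did (0.0102 to 0.33), among them the fit without roxadustat replicate 1 (adjusted p = 0.0415).

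Thrombospondin-4 is a matrix protein of tendon and muscle (Thbs4, ENSMUSG00000021702, chromosome 13, 92751590 to 92794818). Its counts at day 0 were 10 and 2 in roxadustat libraries, against 3 and 0 in control libraries, a ratio per total count of 4.5 with an exact 95% counting interval of 1.21 to 24.8. All 16 cultured libraries had 0 counts. A limit of 3 counts over a group corresponds to 0.0402 CPM in roxadustat, against 0.0448 CPM in control cells at day 7, and to 0.0555 CPM in roxadustat, against 0.0461 CPM in control cells at day 21. Such limits and intervals cover counting error only, and no transcript of Thbs4 was detectable in culture at this depth.

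CCN1 and CCN2 are small secreted proteins that bind integrins and heparan sulfate, and CCN2, also named connective tissue growth factor, is widely read as a marker of matrix production under TGF-beta. Ccn2 (ENSMUSG00000019997, chromosome 10, 24595442 to 24598683) had a lower mean in fresh roxadustat cells without passing the test, at 32.2 and 29.5 CPM in roxadustat libraries, against 35.9 and 37.7 CPM in control libraries (log2 fold change -0.25 ± 0.08, adjusted p = 0.0691, edgeR). Ccn2 at day 7 was at 1721, 1726, 1856 and 1763 CPM in roxadustat libraries, against 1918, 1840, 1735 and 1834 CPM in control libraries, with overlapping groups (-0.05 ± 0.05, adjusted p = 0.433). Ccn2 at day 21 was at 3087, 2914, 3107 and 3129 CPM in roxadustat libraries, against 773, 795, 749 and 767 CPM in control libraries. Every roxadustat library at day 21 was thus above every control library, by 3.97-fold in the fit (log2 fold change 1.99 ± 0.05, adjusted p = 2.12e-22). Ccn2 was called in that direction in all 18 alternatives at day 21, with log2 fold changes from 1.96 to 2.34. The libraries do not mark strand and 23.2% of the exon bases of Ccn2 are shared with the gene Gm15270, whose counts were 7 to 13 per library in roxadustat and 7 to 13 in control cells at day 21.

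Ccn1 (ENSMUSG00000028195, chromosome 3, 145646976 to 145649981), an immediate early gene switched on by serum and by YAP, was never called between roxadustat and control cells in the fit of all libraries. It was at 882 and 503 CPM in roxadustat libraries, against 662 and 961 CPM in control libraries at day 0, with wide overlap (log2 fold change -0.23 ± 0.19, adjusted p = 0.6, edgeR). At day 7 it was at 543, 528, 625 and 576 CPM in roxadustat libraries, against 495, 482, 451 and 489 CPM in control libraries (0.24 ± 0.14, adjusted p = 0.155). At day 21 it was at 816, 740, 796 and 858 CPM in roxadustat libraries, against 670, 702, 619 and 619 CPM in control libraries (0.30 ± 0.14, adjusted p = 0.0657). The roxadustat libraries lay above the control libraries at both culture times without overlap. At day 21, 7 of 18 alternatives called Ccn1 higher (adjusted p 0.000161 to 0.193), and at day 7, 2 of 17 did (0.000372 to 0.305). At day 0 the sign turned on single libraries: the log2 fold change was -0.70 without roxadustat replicate 1 (adjusted p = 0.00885) and 0.12 without roxadustat replicate 2 (adjusted p = 0.8). Other immediate early genes were also high in fresh cells, and 17 of them summed to 11000 CPM in both roxadustat libraries and 12800 to 13900 CPM in control libraries at day 0, against 900 to 947 CPM in roxadustat and 807 to 828 CPM in control libraries at day 7. Their part in the level of Ccn1 was not tested.

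The promoter window of Ccn1 (chr3:145649936-145650235, minus strand, GRCm38.p6, RefSeq) is shown because it holds 2 of the searched motifs, printed in capitals as the reverse complement of GGAATG at 103 bases and of GCGTG at 47 bases before the start site:
Ccn1: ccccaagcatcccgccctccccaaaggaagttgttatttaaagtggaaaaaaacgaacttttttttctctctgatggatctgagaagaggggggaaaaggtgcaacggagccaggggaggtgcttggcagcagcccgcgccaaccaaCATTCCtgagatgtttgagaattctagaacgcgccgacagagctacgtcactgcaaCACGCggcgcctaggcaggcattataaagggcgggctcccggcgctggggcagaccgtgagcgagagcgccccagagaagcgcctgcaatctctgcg
Both matches are on the other strand. Among the other members, GCGTG was found in 1 window of Tnc and in that of Thbs4, and the window of Thbs4 also held GGAATG at 2 places. With GCGTG in 32.4% and GGAATG in 14.7% of all windows, these matches describe the sequences and show no binding.

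Most members had far higher levels in culture than in fresh cells. In control cells at day 7 against day 0, 7 of the 8 tested members were higher and 1, Ccn1, was lower, where 76.5% of all genes were called. Tnc was 540-fold higher at day 7 in control cells, Fn1 154-fold, Postn 128-fold, Thbs2 72.8-fold, Sparc 60.5-fold, Ccn2 49.8-fold and Thbs1 21.2-fold. Ccn1 was 1.69-fold lower (log2 fold change -0.76 ± 0.16, adjusted p = 0.000414, edgeR), a call lost without control replicate 2 of day 0 (adjusted p = 0.0521; 15 alternatives, 1.31e-19 to 0.0635). In roxadustat cells 7 members were higher at day 7 and none lower, where 74.6% of all genes were called. The folds there were 124 for Tnc, 70.7 for Fn1, 57.2 for Ccn2, 19.4 for Thbs1, 17.2 for Sparc, 13.9 for Thbs2 and 6.75 for Postn. The median log2 fold change of the 8 tested members was 4.19 in roxadustat and 6.05 in control cells, beside 0.03 and -0.03 for all genes. Day 0 and day 7 also differ in makeup, since tubule markers were high in the fresh libraries only, and the part of this in the changes was not tested.

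From day 7 to day 21 the treatments parted. In roxadustat cells 4 members were higher at day 21 and 3 lower, where 61.5% of all genes were called, and in control cells 6 were higher and 2 lower, where 68.7% were called. Fn1, Thbs1 and Ccn1 were higher at day 21 in both: Fn1 2.09-fold in roxadustat and 2.36-fold in control cells, Thbs1 1.96-fold and 1.87-fold, and Ccn1 1.41-fold and 1.36-fold. Postn, Thbs2 and Sparc were lower at day 21 in roxadustat cells, by 4.17-fold, 3.47-fold and 2.18-fold, whereas in control cells they were higher, by 4.06-fold, 3.27-fold and 1.78-fold. Ccn2 did the reverse, 1.73-fold higher at day 21 in roxadustat cells and 2.38-fold lower in control cells. Tnc was 1.94-fold lower at day 21 in control cells (adjusted p = 0.000365, edgeR), and in roxadustat cells its log2 difference of -0.23 ± 0.19 did not pass (adjusted p = 0.322). The roxadustat libraries of day 21 still lay below all those of day 7. Of 17 alternatives, 2 called Tnc lower in that comparison (adjusted p from 0.000308 to 0.568 over all 17, edgeR, DESeq2 or limma voom).

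The difference between the treatment effects was tested as an interaction. Between day 0 and day 7 the effect of roxadustat was lower at day 7 for 5 members and higher for none, where 28.9% of all genes were called: by -4.25 ± 0.28 for Postn, -2.39 ± 0.20 for Thbs2, -2.12 ± 0.42 for Tnc, -1.81 ± 0.17 for Sparc and -1.12 ± 0.39 for Fn1, on the log2 scale. Between day 7 and day 21 it was lower at day 21 for 3 members and higher for 2, where 44.7% of all genes were called: by -4.08 ± 0.20 for Postn, -3.50 ± 0.13 for Thbs2 and -1.96 ± 0.13 for Sparc, and by 2.04 ± 0.07 for Ccn2 and 0.73 ± 0.27 for Tnc. The edgeR adjusted p of the last was 0.0375 and of Fn1 in the first 0.041. For Tnc 10 of 26 alternatives kept the call from day 7 to day 21, with adjusted p from 1.04e-12 to 0.102 (edgeR, DESeq2 or limma voom). Leaving out 14 of the 16 libraries in turn ended the call of Tnc and 8 of 12 that of Fn1. Thbs1 and Ccn1 passed neither test, with log2 differences of -0.13 ± 0.10 and 0.47 ± 0.23 for day 7 minus day 0 and 0.07 ± 0.08 and 0.05 ± 0.19 for day 21 minus day 7.

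By day 21 the 8 tested genes kept different distances from the fresh level. In roxadustat cells Fn1 was 148-fold, Tnc 106-fold, Ccn2 99.1-fold, Thbs1 37.9-fold, Sparc 7.9-fold, Thbs2 4-fold and Postn 1.62-fold higher at day 21 than at day 0, where 77.5% of all genes were called. In control cells Postn was 522-fold, Fn1 363-fold, Tnc 278-fold, Thbs2 238-fold, Sparc 108-fold, Thbs1 39.7-fold and Ccn2 20.9-fold higher, where 78.8% were called. Postn thus came last of the 7 called genes in roxadustat cells and first in control cells. In roxadustat cells its log2 fold change was 0.70 with all libraries, 0.26 without roxadustat replicate 1 of day 0 and 1.32 without replicate 2. This call was lost when only the groups compared were fitted (adjusted p = 0.124 in edgeR; 1.09e-15 to 0.124 over 15 alternatives). Ccn1 was called in neither treatment (adjusted p = 0.254 in roxadustat and 0.0888 in control cells, edgeR).

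The order of the 6 groups differed between the genes. For Postn, Sparc and Thbs2 it ran the same way, from control day 0 as the lowest over roxadustat day 0, roxadustat day 21, roxadustat day 7 and control day 7 to control day 21 as the highest, and every step between neighbours was called in the fit of all libraries, for Postn including the day 7 call and the step between roxadustat day 21 and day 0 that alternatives ended. For Fn1 it ran from control day 0 over roxadustat day 0 to the day 7 groups and then the day 21 groups, and neither the 2 groups of day 7 nor the 2 groups of day 21 differed by the test. For Thbs1 the steps between the 2 groups of day 0 and between the 2 groups of day 7 were not called. Tnc was highest in control cells at day 7. In the fit of all libraries, neither the step from there to roxadustat day 7 nor the next one, to roxadustat day 21, was called. The roxadustat libraries of day 21 (2850 to 2961 CPM) lay below all control libraries of day 7 (3401 to 3612 CPM). Ccn2 was highest in roxadustat cells at day 21, and the 2 groups of day 7 and the 2 groups of day 0 were not set apart. For Ccn1 no neighbouring groups differed by the test, from control day 7 as the lowest to control day 0 as the highest. Among pairs of groups that meet only in these orders, 75.7% of all genes were called between control day 7 and roxadustat day 0, 78% between control day 21 and roxadustat day 0, 72.3% between roxadustat day 21 and control day 7, 70.6% between control day 21 and roxadustat day 7, and 77.9% between roxadustat day 21 and control day 0.

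Per kilobase of exon, a scale on which genes can be compared, the 9 genes summed to 464 CPM per kb in roxadustat and 471 CPM per kb in control cells at day 0. The sums were 3421 in roxadustat and 3666 in control cells at day 7, and 4619 in roxadustat and 5711 in control cells at day 21. Fresh cells held mainly Ccn1, with 73.8% of the sum in roxadustat and 85.4% in control cells. At day 7 Thbs1, Sparc and Ccn2 led in both, with Thbs1 at 22.5% in roxadustat and 19.3% in control cells, Sparc at 21.7% and 28%, and Ccn2 at 18% and 17.5%. At day 21 the mixtures differed: roxadustat cells had Thbs1 at 32.7%, Ccn2 at 23.1% and Fn1 at 19.3%, with Sparc at 7.38% and Postn at 0.53%. Control cells had Sparc at 32.1%, Thbs1 at 23.2%, Fn1 at 15.6% and Postn at 9.23%, with Ccn2 at 4.72%. Shares are of group means and carry no test, and those of Ccn2 use a length of which 23.2% is shared with Gm15270.

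**Figure D3:**
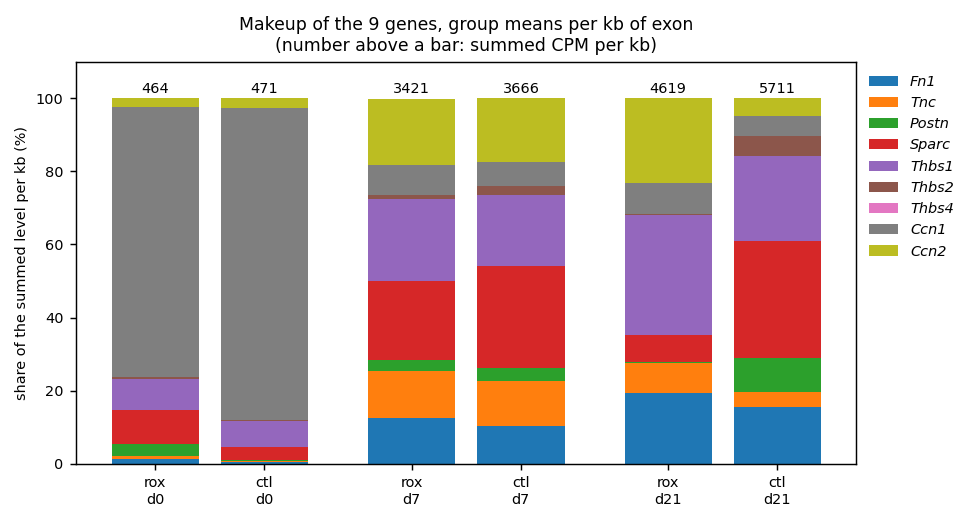
Share of each of the 9 genes in their summed level per kilobase of exon (percent of the group mean), with the sum in CPM per kb above each bar. Ccn1 fills 73.8% of the bar of fresh roxadustat cells and 85.4% of that of fresh control cells, and at day 21 Ccn2 and Thbs1 take more of the roxadustat bar while Sparc and Postn take more of the control bar.

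Ratios of related genes within a library do not depend on the scaling of libraries, and these were chosen after the values had been seen. Thbs1 over Thbs2, per kilobase, was 10.8 and 18.9 in roxadustat and 24.9 and 26.3 in control libraries at day 0. It was 17.3 to 20.9 in roxadustat and 7.19 to 7.79 in control libraries at day 7, and 122 to 138 in roxadustat and 3.94 to 4.54 in control libraries at day 21. Thbs1 was thus the more abundant of the pair in every group, with a higher ratio in control libraries at day 0 and in roxadustat libraries in culture. Ccn2 over Ccn1 was 0.0258 and 0.0414 in roxadustat and 0.0277 and 0.0383 in control libraries at day 0, 2.1 to 2.31 in roxadustat and 2.65 to 2.74 in control libraries at day 7, and 2.57 to 2.78 in roxadustat and 0.799 to 0.874 in control libraries at day 21. Per kilobase, Ccn1 was the more abundant of these 2 in fresh cells of both kinds and in control cells at day 21. In control cells at day 21 the order depends on the length used, since in CPM Ccn2 averaged 771 and Ccn1 652. Of the Ccn2 length, 23.2% is shared with Gm15270, and how reads there were counted was not tested. Postn over Fn1 was 0.0225 to 0.0365 in roxadustat and 0.462 to 0.8 in control libraries at day 21, against 2.02 and 2.83 in roxadustat and 0.329 and 0.558 in control libraries at day 0.

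**Figure D4:**
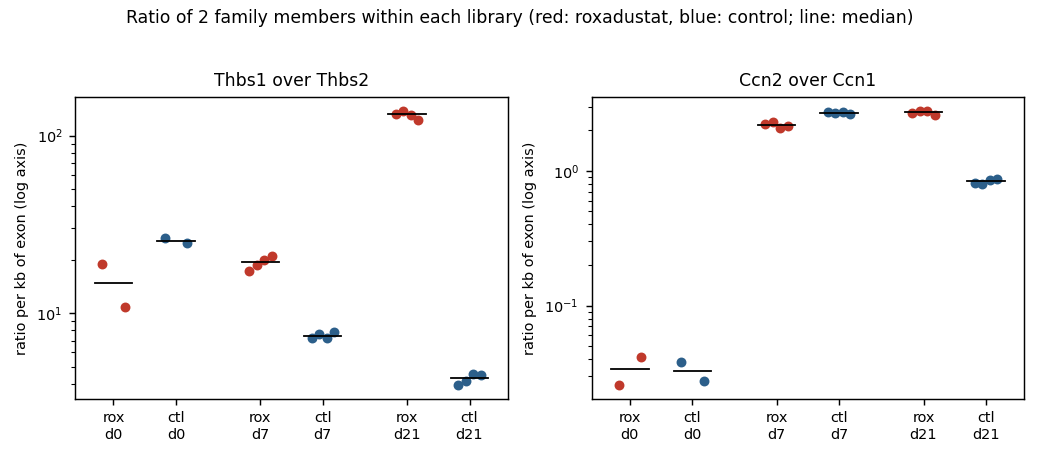
Ratio of the levels per kilobase of Thbs1 over Thbs2 (left) and of Ccn2 over Ccn1 (right) in each library on a log axis, roxadustat in red, control in blue, with the median as a line. At day 21 the ratio of Thbs1 over Thbs2 lies between 122 and 138 in roxadustat and between 3.94 and 4.54 in control libraries.

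Across the 20 libraries the members fell into patterns that also held genes outside the list. Likeness was measured as Pearson's r of log2(CPM + 0.5) with 11352 other genes of at least 5 CPM on average; the libraries share 6 groups, so r describes mostly group means. Thbs2 was most like Ctsk, the gene of the collagen-degrading protease cathepsin K (r = 0.998), then Kdelc2 (0.995) and Mmp23 (0.993). Postn was most like the collagen genes Col3a1 (0.983) and Col1a2 (0.979) and the small proteoglycan gene Aspn (0.983). Sparc was most like Dse, a dermatan sulfate epimerase (0.996), Fkbp7 (0.996) and Rcn3 (0.994), of which the last 2 encode proteins of the endoplasmic reticulum. Among the members, Postn with Thbs2 had r = 0.965, Sparc with Thbs2 0.957 and Postn with Sparc 0.949.

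The other members had other companions. Fn1 was most like Thbs1 (r = 0.994), the kinase gene Rock2 (0.993) and Tnfrsf23 (0.993), and Thbs1 was most like Pvt1 (0.996), Setd7 (0.995) and Tnfrsf23 (0.995). Ccn2 had Enc1 (0.995) and Bcat1 (0.993) among the genes most like it. Tnc was most like Aldh1l2, Aldh18a1 and the hyaluronan receptor gene Cd44 (0.992 each). Ccn1 had no close companion, with Tle3 at 0.835, Prpf40b at 0.825 and Cobll1 at 0.812, and its r with the other 8 members ran from -0.5 to 0.262. Thbs4, whose values are mostly 0, had Cyp4a14 (0.89) and Tstd2 (0.859) among the genes most like it.

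Most genes of related matrix proteins were lower in roxadustat cells at day 21. Of 22 other matricellular and matrix-associated genes 19 were tested, of which roxadustat cells had 3 higher and 2 lower at day 0, 5 higher and 8 lower at day 7, and 2 higher and 15 lower at day 21. Of all genes tested, 2.73% were higher and 4.11% lower at day 0. At day 7 these shares were 24.1% and 23.6%, and at day 21 they were 30% and 32.9%. The median log2 fold changes of the 19 genes were 0.24, -0.58 and -2.03, beside -0.01, 0.03 and 0 for all genes. Fstl1, a SPARC relative, was 3.1-fold higher at day 0 (124 ± 38.3 CPM in roxadustat, against 39.9 ± 11.9 CPM in control cells; SD, n = 2 each). The CCN gene Ccn3 was 3.08-fold higher in roxadustat cells at day 7 and 79.9-fold lower at day 21, with 11.3 ± 1.06 CPM in roxadustat, against 910 ± 38.7 CPM in control cells (SD, n = 4 each; adjusted p = 3.1e-25, edgeR). Spp1, the gene of osteopontin, a secreted phosphoprotein also made by kidney epithelium, was 1.32-fold lower at day 0 and 29.6-fold higher at day 21, with 20582 ± 1656 CPM in roxadustat, against 694.5 ± 79.4 CPM in control cells (adjusted p = 3.78e-26). The elastic fibre gene Fbln5 was 6.78-fold lower at day 21.

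Collagen genes, on whose fibrils periostin, SPARC and thrombospondin-2 act, were mostly higher in fresh roxadustat cells and mostly lower in cultured ones. Of 12 fibrillar and fibril-associated collagen genes, roxadustat cells had 9 higher and none lower at day 0, 1 higher and 9 lower at day 7, and all 12 lower at day 21, with median log2 fold changes of 1.69, -1.07 and -4.01. Col3a1 was 8.76-fold higher at day 0 (1254 ± 475 CPM in roxadustat, against 143 ± 39.9 CPM in control cells; SD, n = 2 each), and Col14a1 3.12-fold higher. Col11a1 was 7.74-fold lower in roxadustat cells at day 7 and 35-fold lower at day 21, and Col12a1 was 1.87-fold higher at day 7 and 6.58-fold lower at day 21. Of all genes 2.73% were higher and 4.11% lower at day 0, with 24.1% higher and 23.6% lower at day 7, and 30% higher and 32.9% lower at day 21. The fibroblast and macrophage marker sums given above were also higher in roxadustat libraries at day 0 and lower at days 7 and 21, the pericyte and endothelial sums were lower at each time, and Col14a1 is on both the collagen and the fibroblast list. Their part in the collagen levels was not tested.

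Receptors of the members were called in both directions, and at day 7 more of them were lower than higher, unlike genes at large. Of 18 integrin chains and other receptors, roxadustat cells had 2 higher and 1 lower at day 0, 4 higher and 11 lower at day 7, and 8 higher and 9 lower at day 21. The shares of all genes were 2.73% higher and 4.11% lower at day 0, with 24.1% higher and 23.6% lower at day 7, and 30% higher and 32.9% lower at day 21. Itga3, the alpha chain of a laminin and thrombospondin receptor of epithelial cells, was 1.38-fold lower at day 0 and 20.3-fold higher at day 21 (552 ± 33.8 CPM in roxadustat, against 27.2 ± 3.70 CPM in control cells; SD, n = 4 each; adjusted p = 1.99e-26, edgeR). Itga6 was 4.38-fold and Itgb3 3.78-fold higher at day 21. At day 7, Stab1, the scavenger receptor that takes up SPARC, was 9.35-fold lower, Itga9, a tenascin-C receptor chain, 1.78-fold lower, and Sdc4, a proteoglycan coreceptor for fibronectin, 2.09-fold higher. The macrophage and endothelial marker sums given above were also lower in roxadustat libraries in culture, and the kidney epithelial sum was higher. The part of such cells in the receptor levels was not tested.

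The lists of known upstream pathways are to be read against all genes, of which 6.83% were called at day 0 (2.73% higher and 4.11% lower), 47.7% at day 7 (24.1% and 23.6%) and 62.9% at day 21 (30% and 32.9%). Calls in both directions are the background at both culture times. Of 20 YAP and TAZ target genes other than the members, 3 were higher and 4 lower at day 0, 8 higher and 5 lower at day 7, and 11 higher and 8 lower at day 21. At day 21 Nt5e was 29.7-fold and Nuak2 4.34-fold higher in roxadustat cells, and Igfbp3 was 23.9-fold lower. Of 13 genes of YAP, TAZ, TEAD factors and their regulators, 1 was higher and 1 lower at day 0, 4 higher and 5 lower at day 7, and 6 higher and 3 lower at day 21, with Wwtr1, which encodes TAZ, 1.36-fold lower at day 7 and Vgll3 2.08-fold lower at day 21. Of 9 genes of serum response factor, its MRTF partners and their contractile targets, none was higher and 2 were lower at day 0, 1 higher and 7 lower at day 7, and none higher and 6 lower at day 21. The smooth muscle actin gene Actg2 was 7.81-fold lower at day 7 and 13.4-fold lower at day 21. The pericyte and smooth muscle marker sum given above was lower at the same times, and Acta2, which is on both lists, averaged 1630 CPM in roxadustat, against 5380 CPM in control cells at day 7, and 656 CPM in roxadustat, against 2210 CPM in control cells at day 21. Myh11, the smooth muscle myosin gene, averaged 7.12 CPM in roxadustat, against 124 CPM in control cells at day 21, and the part of such cells in these levels was not tested. Of 18 genes of TGF-beta ligands, receptors, binding proteins and targets, none was higher and 1 lower at day 0, 5 higher and 8 lower at day 7, and 6 higher and 9 lower at day 21, with Ltbp1 10.3-fold and Tgfbr3 8.22-fold lower and the feedback inhibitor gene Smad7 2.45-fold higher at day 21. Of 17 immediate early genes, 1 was higher and 10 lower at day 0, 8 higher and 4 lower at day 7, and 9 higher and 6 lower at day 21, among them Ier3, 5.11-fold higher at day 21.

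**Figure D5:**
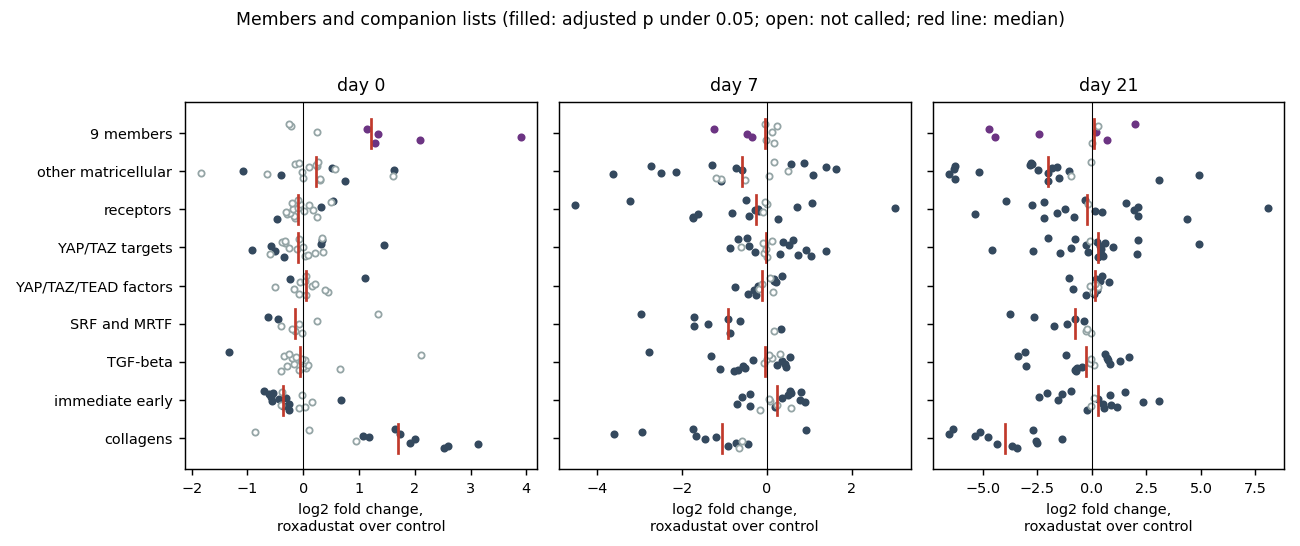
Fitted log2 fold change of roxadustat over control cells for the tested members and for the genes of 8 companion lists at days 0, 7 and 21 (1 point per gene, filled where the adjusted p was under 0.05, red line at the median of the list). The collagen median is 1.69 at day 0, -1.07 at day 7 and -4.01 at day 21, whereas the members spread to both sides at day 21.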

How the data were processed

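The authors deposited raw read counts per Ensembl gene for each of the 20 libraries. Per the submitters' processing notes the build was mm10 and the tools were bcl2fastq, featureCounts 1.5.0-p1 and STAR 2.5.2a, and per the labels' protocols the RNA was extracted with Trizol and libraries were non-stranded. The annotation release is not given in the sources used here, and 47310 of 47729 IDs matched GENCODE M21, which gave symbols, positions and exon lengths. All libraries were fitted together in edgeR 4.0.16 (R 4.3.3; filterByExpr, TMM, robust quasi-likelihood F test, 1 mean per group, Benjamini-Hochberg adjustment over 18731 genes, adjusted p threshold 0.05). An SE was taken as the size of the log2 fold change over the root of F. CPM were scaled by TMM, and values per kilobase use the union of exons. Alternatives were other scalings, filters, DESeq2 1.42.0, limma 3.58.1 voom, the replicate number as a block, only the groups compared, summed pairs of control libraries at day 21, and leaving out each library. The steps were tested on simulated data. The 9 genes, the companion and marker lists and the rule for named genes (the 3 genes most like each member, and up to 3 called genes per list and comparison with the smallest adjusted p) were chosen with earlier results of these data known. Some genes that this rule names are not reported here. No library was left out.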

Additional observations from a re-analysis of the deposited data

Results flagged for a closer look

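The effect of roxadustat on the log2 scale differed between times in a test of the interaction. From day 0 to day 7 it differed by -4.25 for Postn, -2.39 for Thbs2, -2.12 for Tnc, -1.81 for Sparc and -1.12 for Fn1. From day 7 to day 21 it differed by -4.08 for Postn, -3.50 for Thbs2 and -1.96 for Sparc, and by 2.04 for Ccn2 and 0.73 for Tnc. For each tested member in each culture group, the 4 libraries were examined for a library far from the others. Of these 32 sets of values, which share libraries, 2 held such a library, where chance gives about 1 in 20. They were Sparc at 4190 CPM in replicate 1 and Thbs1 at 4470 CPM in replicate 4 of the control cells at day 7.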

How the results depend on the processing

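Of 1528 log2 fold changes of members recomputed under the alternatives, 1423 kept their direction and their side of the threshold, 48 lost a call, 38 gained one and 19 changed sign. Of 382 counts of calls, 379 stayed within 1.5 times. With only the fresh libraries the count of members called at day 0 was 0 and of all genes 23, and leaving out 1 library gave 573 to 1649 genes. For Fn1 at day 21 the log2 fold change was 0.018 with DESeq2's size factors, 0.35 with library size alone, 0.079 with the upper quartile, 0.022 with a mean of at least 1 CPM, 0.018 with DESeq2, 0.013 with limma voom, 0.050 with only the groups compared, 0.035 with the replicate block and -0.098 to 0.089 with 1 library left out. With library size alone the log2 fold change was 0.014 for Ccn2 and 0.030 for Tnc at day 7, 0.15 for Ccn1 in roxadustat cells at day 7 against day 0, and the Fn1 effect at day 21 minus day 7 was 0.11. With 1 library left out Ccn1 ran from -0.70 to 0.12 for roxadustat against control at day 0, from -0.62 to 0.20 for roxadustat cells at day 7 against day 0, and from -0.14 to 0.68 for them at day 21 against day 0. The cause of these shifts was not tested. The replicate numbers did not pair the libraries: of 42 same-numbered pairs 3 had a correlation of deviations over 0.1 (-0.275 to 0.343). With the replicate block 2 members were called at day 7 in place of 3, since Postn had an adjusted p of 0.0514, and the Tnc effect at day 21 minus day 7 had 0.0547. Library size alone moved all log2 fold changes at day 21 by 0.348 and gave 9372 higher and 3549 lower genes against 5616 and 6165, and at day 7 5366 and 3648 against 4507 and 4419. At day 0 it gave 699 and 524 against 511 and 769, and the upper quartile 595 and 658. Depth limits Thbs4 alone among the members, and the 2 libraries per group limit every value of day 0.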
